A study of Mus musculus with 2 samples.

Results

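The IGF-binding proteins and the IGF receptor were followed through 7 genes, Igfbp2, Igfbp3, Igfbp4, Igfbp5, Igfbp6, Igfbp7 and Igf1r, which were chosen by symbol out of 27998 genes listed. Their transcripts were measured in the hair follicle, suprabasal and basal cells of mouse back skin on embryonic day 17, in 1 cKO library and 1 Ctrl library made by 10x 3′ single-cell RNA sequencing. The cKO embryos were Mettl3 fl/fl and the Ctrl embryos Mettl3 fl/+. All of them carried K14Cre and a YFP reporter on the C57BL/6 strain. The reporter is written Rosa16-YFP fl/+ in the sample labels and Rosa26-YFP in the methods. YFP+ DAPI- cells were sorted and gated on integrins α6 and β1. K14Cre acts in keratin 14-expressing progenitors, where it removes the fourth exon of floxed Mettl3, the gene of the m6A RNA methyltransferase, and turns on YFP. With 1 library per condition no spread between embryos could be measured, no test between conditions was possible, and every interval given here is a 95% interval that covers counting error only.

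Insulin-like growth factors are secreted ligands that act through IGF1R, a receptor tyrosine kinase which signals to the PI3K and MAP kinase pathways. The secreted IGF-binding proteins hold the ligands in the extracellular space, lengthen their life and limit or deliver them to the receptor, and several of them also act on cells without IGF. In skin, IGF signalling is known for its part in keratinocyte growth and in the growth of hair.

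The kept cells, barcodes with at least 1800 genes, numbered 3577 in the cKO library and 4447 in the Ctrl library. They held 34116275 UMIs (unique molecular identifiers, 1 for each captured molecule) in the cKO and 43874554 UMIs in the Ctrl library, with medians of 8581 and 8941 UMIs per cell, and 16 barcodes occurred in both. Y-linked transcripts were seen in 64.3% of cKO and 0.112% of Ctrl cells, and Xist in 0.0280% of cKO and 99.8% of Ctrl cells, so sex and genotype cannot be told apart for any value here. Mettl3 had 6.18 CPM (UMIs of a gene per 1000000 UMIs; interval 5.38 to 7.08) in cKO cells and 12.7 CPM (11.7 to 13.8) in Ctrl cells. Since 3′ tags need not cross the deleted exon, this level does not measure the deletion.

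Cells were assigned by marker genes that include none of the 7. Suprabasal cells had at least 2000 CPM of the differentiation keratins Krt1 and Krt10. Follicle cells had at least 3 UMIs over Shh, Dkk4, Fgf20, Lhx2, Sox9 and Krt79, and basal cells had at least 3000 CPM of Krt5 and Krt14 with at most 1 UMI of the follicle genes. The follicle gate held 731 cKO and 674 Ctrl cells, the suprabasal gate 349 and 456 cells, and the basal gate 1500 and 2007 cells. The integrin sort helps to set these shares. Each gate is a range on a continuous measure. Between 1000 and 4000 CPM of Krt1 and Krt10 lay 141 cKO and 132 Ctrl cells, between 2 and 4 UMIs of follicle genes 379 and 289 cells, and between 2000 and 4000 CPM of Krt5 and Krt14 560.0 and 435 cells. The median follicle cell had 22 UMIs of Krt5 and Krt14 in the cKO and 30 in the Ctrl library. The median basal cell had 88 UMIs of Krt5 and Krt14 in the cKO and 123 in the Ctrl library. It had 2 UMIs of Krt1 and Krt10 and 0 of the follicle genes in either.

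A further 743 cKO and 1123 Ctrl cells stood outside these gates because they passed a minimum of 10 UMIs over the mesenchymal markers Col1a1, Col1a2, Col3a1, Dcn and Lum. Of these, 729 cKO and 1112 Ctrl cells had at least 10 UMIs of Dcn (decorin, a proteoglycan of the extracellular matrix), and 6 cells in each library had 10 UMIs over the other markers. The cells over the minimum held 5216 CPM of Krt14 in the cKO and 8049 CPM in the Ctrl library, against 12.7 and 12.02 CPM of Col1a1, so their keratins go against a mesenchymal name. They are called Dcn-rich cells here. Applied without Dcn, the gates placed 240.0 cKO and 260.0 Ctrl of them in the follicle, 13 and 13 in the suprabasal and 426 and 753 in the basal class. Values with these cells added are given where they differ. In the 3 gates, the immune markers summed to between 0 and 0.217 CPM and the muscle markers to between 0 and 0.253 CPM, with Ptprc, Cd52 and Laptm5 at 0 in every gate of either library. Cells with at least 3 UMIs over the immune or over the muscle markers had been set aside first, so that filter limited these sums.

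Igfbp2, which encodes a secreted binding protein with a preference for IGF2, was the most abundant of the 7 genes in basal cells. In follicle cells it had 26.8 CPM (23.0 to 31.1) in the cKO and 34.3 CPM (29.8 to 39.2) in the Ctrl library. In suprabasal cells it had 80.5 CPM (71.9 to 89.8) in the cKO and 81.1 CPM (73.7 to 89.2) in the Ctrl library. Basal cells had 241 CPM (232 to 249) in the cKO and 302 CPM (294 to 310.3) in the Ctrl library. The order follicle, suprabasal, basal from low to high was the same in both libraries and none of the neighbouring intervals overlapped within a library. Follicle cells thus held 0.112 times the basal level (0.0954 to 0.130) in the cKO and 0.113 times (0.0984 to 0.130) in the Ctrl library. Suprabasal cells held 0.334 times the basal level (0.297 to 0.375) and 0.268 times (0.243 to 0.296). With the Dcn-rich cells added, follicle cells held 0.169 times the basal level in the cKO and 0.195 times in the Ctrl library. The suprabasal to basal ratios then were 0.336 and 0.261.

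Igfbp5 encodes a binding protein that also binds the extracellular matrix. It was also highest in basal cells, at a lower level. Follicle cells had 11.5 CPM (9.03 to 14.3) in the cKO and 16.01 CPM (13.0 to 19.5) in the Ctrl library. Suprabasal cells had 6.83 CPM (4.50 to 9.94) in the cKO and 8.60 CPM (6.30 to 11.5) in the Ctrl library. In basal cells the values were 31.9 CPM (29.0 to 35.0) in the cKO and 40.3 CPM (37.5 to 43.3) in the Ctrl library. Basal cells stood apart from both other gates in either library, while the intervals of follicle and suprabasal cells touched in the cKO library. The ratio of follicle over basal was 0.359 (0.278 to 0.459) in the cKO and 0.397 (0.319 to 0.490) in the Ctrl library, and that of suprabasal over basal 0.214 (0.140 to 0.316) and 0.213 (0.155 to 0.287).

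Igfbp2 and Igfbp5 are neighbours on chromosome 1 of GRCm38, the build of the mm10 reference the files use. Igfbp2 (ENSMUSG00000039323) spans 72824503 to 72852474 on the forward strand and Igfbp5 (ENSMUSG00000026185) spans 72857932 to 72874884 on the reverse strand, so their ends face each other with 5457 bases between them. The start regions of this pair are shown because both genes were highest in basal cells, and they run from 120 bases before to 30 bases after the RefSeq start (GRCm38.p6, 5′ to 3′ on the strand of the gene). Capitals mark the GC box GGGCGG and the TATA box TATAAA, searched on both strands. The Igfbp2 window is chr1:72824360-72824509 and the Igfbp5 window chr1:72874836-72874985.
Igfbp2: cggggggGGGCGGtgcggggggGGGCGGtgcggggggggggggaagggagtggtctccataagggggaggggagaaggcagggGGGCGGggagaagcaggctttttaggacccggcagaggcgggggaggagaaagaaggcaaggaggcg
Igfbp5: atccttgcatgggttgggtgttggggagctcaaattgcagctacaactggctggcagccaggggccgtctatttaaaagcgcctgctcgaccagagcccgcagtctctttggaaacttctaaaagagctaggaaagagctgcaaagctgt
The Igfbp2 window held 3 GC boxes and no TATA box, and the Igfbp5 window held neither. Of 32851 such windows over all genes, 29.1% held the GC box and 7.16% the TATA box.

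Igfbp3, the main carrier of IGF in serum and a growth-limiting protein in cultured keratinocytes, was scarce. Follicle cells were lowest, with 1.36 CPM (0.620 to 2.58) in the cKO and 4.37 CPM (2.88 to 6.35) in the Ctrl library. Suprabasal cells had 6.58 CPM (4.30 to 9.64) in the cKO and 11.4 CPM (8.72 to 14.7) in the Ctrl library. Basal cells had 8.38 CPM (6.91 to 10.1) in the cKO and 14.7 CPM (13.0 to 16.6) in the Ctrl library, and their intervals overlapped with those of suprabasal cells in either. Igfbp3 was not even within the suprabasal gate, and its levels along the suprabasal keratins are given below. The ratio of follicle over basal was 0.162 (0.0722 to 0.318) in the cKO and 0.296 (0.192 to 0.441) in the Ctrl library. Igfbp3 (ENSMUSG00000020427) lies on chromosome 11 from 7206086 to 7213923, 3539 bases from Igfbp1, which had 0 UMIs in every gate.

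Igfbp4 and Igfbp7 showed the reverse layout, highest in the follicle. Igfbp4 encodes a binding protein that restrains IGF until the protease PAPP-A cuts it. It had 195 CPM (184 to 206) in cKO and 215 CPM (203 to 227) in Ctrl follicle cells. Suprabasal cells had 28.8 CPM (23.8 to 34.7) in the cKO and 21.5 CPM (17.8 to 25.8) in the Ctrl library. Basal cells had 51.4 CPM (47.6 to 55.3) in the cKO and 41.0 CPM (38.1 to 44.0) in the Ctrl library, so that follicle, basal and suprabasal cells followed each other without overlap. Follicle over basal was 3.79 (3.46 to 4.16) in the cKO and 5.24 (4.79 to 5.74) in the Ctrl library. With the Dcn-rich cells added it was 3.16 (2.90 to 3.43) and 4.46 (4.12 to 4.83).

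Igfbp7 encodes a secreted protein with only weak affinity for IGF that is found in basement membranes of vessels. It was the most restricted of the 7, with 54.7 CPM (49.2 to 60.6) in cKO and 47.4 CPM (42.1 to 53.1) in Ctrl follicle cells. Suprabasal cells had 1 UMI in the cKO and 13 UMIs in the Ctrl library, which correspond to 0.253 CPM (0.00641 to 1.41) and 2.43 CPM (1.29 to 4.16). Basal cells had 1.98 CPM (1.31 to 2.89) in the cKO and 1.46 CPM (0.964 to 2.13) in the Ctrl library, with 27 UMIs in each. Follicle over basal was 27.6 (18.6 to 42.4) in the cKO and 32.4 (21.8 to 49.98) in the Ctrl library. Endothelial cells also use this gene: of their markers, Pecam1 was detected in every gate, and the 3 endothelial markers summed to 4.97 CPM in cKO and 4.85 CPM in Ctrl follicle cells against 4.85 and 4.39 CPM in basal cells, with Cdh5 and Kdr at 0 in follicle cells of both libraries. Cells with at least 2 UMIs over the 3 endothelial markers had been set aside before the gates, so that filter limited these sums. A part of endothelial cells in the follicle level of Igfbp7 was not tested. The methods list CD31, the product of Pecam1, among the lineage-negative markers of cell sorting. Free RNA, taken from barcodes with 10 to 100 UMIs, had 6.97 CPM of Igfbp7 in the cKO and 6.61 CPM in the Ctrl library, above the basal level and below the follicle level.

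The start regions of Igfbp4 and Igfbp7 are shown in the same way because these genes shared the follicle as their highest gate. Igfbp4 (ENSMUSG00000017493) lies on the forward strand of chromosome 11 from 99041244 to 99054392 and its window is chr11:99041124-99041273. Igfbp7 (ENSMUSG00000036256) lies on the reverse strand of chromosome 5 from 77349240 to 77408041 and its window is chr5:77408016-77408165.
Igfbp4: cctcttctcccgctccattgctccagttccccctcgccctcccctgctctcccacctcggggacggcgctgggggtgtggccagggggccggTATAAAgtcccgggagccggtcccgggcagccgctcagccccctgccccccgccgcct
Igfbp7: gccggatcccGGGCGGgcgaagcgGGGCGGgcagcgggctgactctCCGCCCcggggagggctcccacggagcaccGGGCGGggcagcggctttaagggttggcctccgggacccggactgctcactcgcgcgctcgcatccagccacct
The Igfbp4 window held 1 TATA box, 28 bases before the start, and no GC box, while the Igfbp7 window held 4 GC boxes, 1 of them on the opposite strand, and no TATA box. These matches describe the letters alone.

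Igf1r, which encodes the receptor itself, was shared by basal and follicle cells and low above the basal layer. It had 25.5 CPM (21.8 to 29.6) in cKO and 21.8 CPM (18.3 to 25.8) in Ctrl follicle cells. Suprabasal cells had 6.83 CPM (4.50 to 9.94) in the cKO and 6.92 CPM (4.87 to 9.54) in the Ctrl library. Basal cells had 28.0 CPM (25.3 to 31.0) in the cKO and 24.0 CPM (21.8 to 26.4) in the Ctrl library, and the intervals of follicle and basal cells overlapped in both. Suprabasal over basal was 0.244 (0.159 to 0.361) in the cKO and 0.288 (0.200 to 0.403) in the Ctrl library. Igf1r (ENSMUSG00000005533) spans 67952827 to 68233668 on the forward strand of chromosome 7.

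Igfbp6, whose product prefers IGF2 over IGF1, was close to the limit of detection. It had 12 UMIs in cKO and 6 in Ctrl follicle cells, 3 and 0 UMIs in suprabasal cells and 27 and 21 UMIs in basal cells. The basal level was 1.98 CPM (1.31 to 2.89) in the cKO and 1.14 CPM (0.704 to 1.74) in the Ctrl library. With a floor of 3 counts in place of the 0, the Ctrl suprabasal level was 2.03-fold below the Ctrl basal estimate. This value leaves out the counting error of the basal level. The lower limit of the Ctrl basal level, 0.704 CPM, lay close to the upper limit of the Ctrl suprabasal level, 0.690 CPM. In the cKO library the ratio of suprabasal over basal was 0.383 with an interval of 0.0743 to 1.24.

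**Figure D1:**
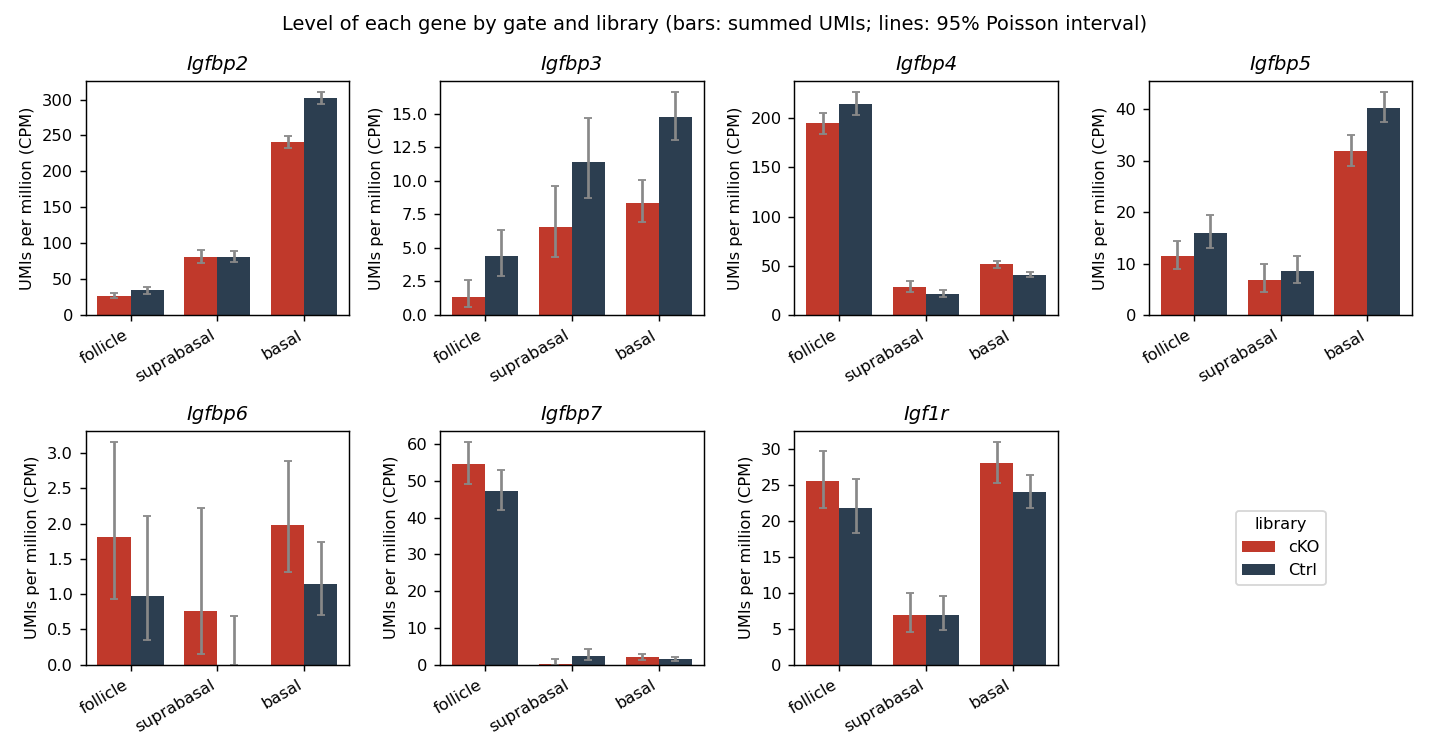
Each panel plots the level of 1 of the 7 genes in CPM for follicle, suprabasal and basal cells, with cKO in red to the left of Ctrl in dark blue. Bars are sums over all cells of a gate and lines are 95% Poisson intervals. Igfbp2, Igfbp3 and Igfbp5 have their highest bars in basal cells, although the basal and suprabasal intervals of Igfbp3 overlap in both libraries. Igfbp4 and Igfbp7 have their highest bars in follicle cells. Igf1r is at least 21.8 CPM in follicle and basal cells and at most 6.92 CPM in suprabasal cells.

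All 7 genes had at least 20 UMIs over both gates of each comparison in each library. Between follicle and basal cells, 2 of the 7 (Igfbp4 and Igfbp7) were at least 2-fold higher in follicle cells of both libraries and 3 (Igfbp2, Igfbp3 and Igfbp5) at least 2-fold lower. Of the 11276 genes measured in the same way that were not gate markers, 7.74% were higher and 1.93% lower. Between suprabasal and basal cells, none of the 7 was at least 2-fold higher and 4 (Igfbp2, Igfbp5, Igfbp6 and Igf1r) were at least 2-fold lower, where 5% of 10989 genes were higher and 7.99% lower. Igfbp6 is counted there with 3 cKO and 0 Ctrl UMIs in suprabasal cells, and the interval of its cKO ratio, 0.0743 to 1.24, held 1.

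Along the suprabasal keratins the levels of Igfbp2 went down step by step. Basal and suprabasal cells were divided by their summed Krt1 and Krt10 at 300, 2000, 10000 and 30000 CPM, which gave 999, 501, 127, 117 and 105 cKO cells and 1314, 693, 130, 141 and 185 Ctrl cells from low to high. In this order Igfbp2 had 254, 213, 139, 72.3 and 26.8 CPM in the cKO library, and 316, 274, 132, 91.7 and 43.6 CPM in the Ctrl library. Each step of Igfbp2 was downward in both libraries. Igfbp5 had 31.5, 32.7, 13.5, 4.34 and 2.43 CPM in the cKO library and 40.6, 39.7, 13.7, 11.7 and 3.42 CPM in the Ctrl library. The 2 basal steps of Igfbp5 did not differ beyond their intervals, and its level was lower in each library past the gate between basal and suprabasal cells and lower again at the highest step than just past the gate. Igf1r likewise had 27.7 and 28.6 CPM in the cKO and 24.7 and 22.6 CPM in the Ctrl library in the lowest 2 steps, and between 2.43 and 10.5 CPM in the higher steps of either library. Igfbp3 had 6.98, 11.3, 10.5, 7.23 and 1.62 CPM in the cKO library. In the Ctrl library Igfbp3 had 12.3, 19.8, 29.6, 8.61 and 2.56 CPM. Its Ctrl middle step (21.3 to 40.2) lay above the lowest (10.4 to 14.4) and overlapped the step between them (16.4 to 23.6). The cKO middle step, from 14 UMIs, overlapped both basal steps. In the Ctrl suprabasal gate the Igfbp3 UMIs came from 28 cells, with up to 11 in a cell. The ligand gene Igf2 had 40.6, 50.4, 45.0, 55.6 and 35.7 CPM in the cKO library and 39.5, 58.0, 69.4, 53.5 and 38.9 CPM in the Ctrl library. In the Ctrl library its middle step (56.2 to 84.7) lay above the lowest (36.1 to 43.2) and the highest step (31.3 to 47.8).

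**Figure D2:**
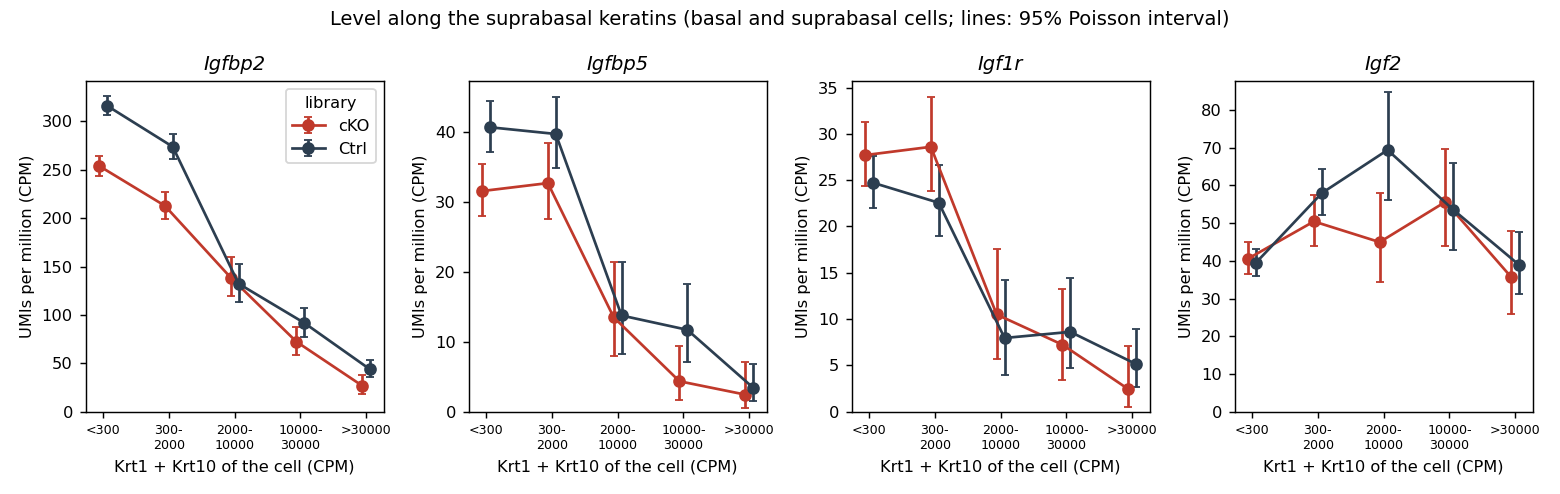
The panels plot Igfbp2, Igfbp5, Igf1r and Igf2 in CPM against the summed Krt1 and Krt10 level of the cells in 5 steps, with cKO in red and Ctrl in dark blue and 95% Poisson intervals as lines. Igfbp2 ends at 26.8 CPM in the cKO and 43.6 CPM in the Ctrl library, and Igfbp5 and Igf1r are lower in the higher 3 steps than in the lowest 2. Igf2 lies between 35.7 and 69.4 CPM, with its highest value in the middle step of the Ctrl library.

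Within the basal gate, cells with at least 2 UMIs over the mitotic genes Mki67 and Top2a were called cycling, and the rest resting. Of the 689 cKO and 1054 Ctrl resting cells, 480 and 803 had no UMI of either gene. The median resting cell had 7504 UMIs in the cKO and 7734 in the Ctrl library, and the median cycling cell 9581 and 9737. Igfbp4 had 73.1 CPM (66.1 to 80.7) in resting and 37.1 CPM (33.1 to 41.5) in cycling cKO cells, a ratio of 1.97 (1.69 to 2.30). In Ctrl cells it had 54.2 CPM (49.4 to 59.4) in resting and 29.5 CPM (26.2 to 33.1) in cycling cells, a ratio of 1.84 (1.58 to 2.13). Igfbp2 was 1.30 times as high in resting cells (1.22 to 1.40) in the cKO and 1.38 times (1.31 to 1.46) in the Ctrl library. The Igfbp3 ratio was 2.02 (1.37 to 2.99) in the cKO and 1.44 (1.13 to 1.85) in the Ctrl library. Igf1r went the other way in the cKO library, at 0.701 times the cycling level (0.560 to 0.874), while the Ctrl ratio of 0.892 (0.735 to 1.08) did not leave 1. For Igfbp5 the ratios were 0.856 (0.699 to 1.04) and 1.09 (0.946 to 1.27).

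Within the follicle gate the 2 follicle genes peaked in different cells. Follicle cells were assigned by at least 2 UMIs over Shh, Dkk4 and Fgf20 (bud tip), else of Sox9, else of Krt79. Sox9 cells could thus also hold Krt79. Cells assigned by Krt79, a marker of the upper follicle, held the most Igfbp4. They had 318 CPM (282 to 358) in the cKO and 309 CPM (278 to 343) in the Ctrl library. Cells led by Sox9, a transcription factor of follicle progenitors, had 192 CPM (180 to 206) and 196 CPM (182 to 209.8). The ratio of Krt79 over Sox9 cells was 1.66 (1.44 to 1.90) in the cKO and 1.58 (1.39 to 1.79) in the Ctrl library. Igfbp7 was highest in the remaining follicle cells, which had fewer than 2 UMIs of the bud tip genes, of Sox9 and of Krt79 and are called Lhx2-led here. They numbered 69 in the cKO and 63 in the Ctrl library and had 116 CPM of Igfbp7 (91.3 to 145) in the cKO and 154 CPM (124 to 189) in the Ctrl library. Over the Sox9 cells, which had 51.9 and 44.7 CPM, this was 2.24-fold (1.70 to 2.91) in the cKO and 3.44-fold (2.64 to 4.46) in the Ctrl library. Krt79 cells had 40.4 CPM of Igfbp7 (28.3 to 55.9) in the cKO and 11.9 CPM (6.50 to 19.96) in the Ctrl library. These intervals did not overlap, but they cover counting error only and leave out the spread over cells. The 36 cKO UMIs came from 17 cells, with up to 8 in a cell. The 14 Ctrl UMIs came from 11 cells, with up to 2 in a cell. With cells thinned to an equal depth, 14.1% (7.95 to 22.6) of cKO and 5.69% (2.32 to 11.4) of Ctrl Krt79 cells had a UMI. The intervals of these shares overlapped.

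The bud tip, cells with at least 2 UMIs over Shh, Dkk4 and Fgf20, held more Igfbp2 than Sox9 cells. There were 82 cKO and 46 Ctrl such cells within the gate, with 79.8 CPM of Igfbp2 (59.8 to 104) in the cKO and 55.5 CPM (35.2 to 83.3) in the Ctrl library. The Dcn-rich bud tip held another 185 and 173 cells, with 92.9 CPM (79.7 to 108) in the cKO and 175 CPM (157 to 195) in the Ctrl library. Put together, the bud tip had 89.5 CPM (78.3 to 102) in the cKO and 153 CPM (138 to 170.3) in the Ctrl library, against 23.7 and 29.2 CPM in Sox9 cells. That is 3.78-fold higher (2.99 to 4.81) in the cKO and 5.25-fold higher (4.25 to 6.53) in the Ctrl library. The Sox9 cells throughout this paragraph are those within the gate, without Dcn-rich cells. Ratios of the bud tip put together thus differ in cell choice as well as cell type. Within the gate alone, the bud tip held 3.37 times (2.37 to 4.73) the Sox9 level of Igfbp2 in the cKO and 1.90 times (1.16 to 2.99) in the Ctrl library. Krt79 cells had 15.7 CPM of Igfbp2 (8.58 to 26.3) in the cKO and 51.8 CPM (39.6 to 66.6) in the Ctrl library, which overlapped with the Ctrl bud tip within the gate. Igfbp4 within the gate had 96.4 CPM (74.2 to 123) in the cKO bud tip and 193 CPM (153 to 240.2) in the Ctrl bud tip, and only the cKO value lay below that of Sox9 cells beyond its interval. With the Dcn-rich cells it had 65.0 CPM (55.5 to 75.6) in the cKO and 90.7 CPM (78.8 to 104) in the Ctrl bud tip, 0.338 times (0.285 to 0.400) and 0.464 times (0.396 to 0.541) the level of Sox9 cells. Igfbp7 in the bud tip put together was 0.517 times (0.390 to 0.680) the Sox9 level in the cKO and 0.414 times (0.289 to 0.582) in the Ctrl library. Within the gate alone its ratios were 0.638 (0.392 to 0.990) and 0.540 (0.255 to 1.02). The Dcn-rich basal cells had more Igfbp2 than the basal gate, 1.31 times (1.23 to 1.40) in the cKO and 1.31 times (1.26 to 1.37) in the Ctrl library. They had less Igfbp5, at 0.565 times (0.439 to 0.719) and 0.525 times (0.442 to 0.621).

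**Figure D3:**
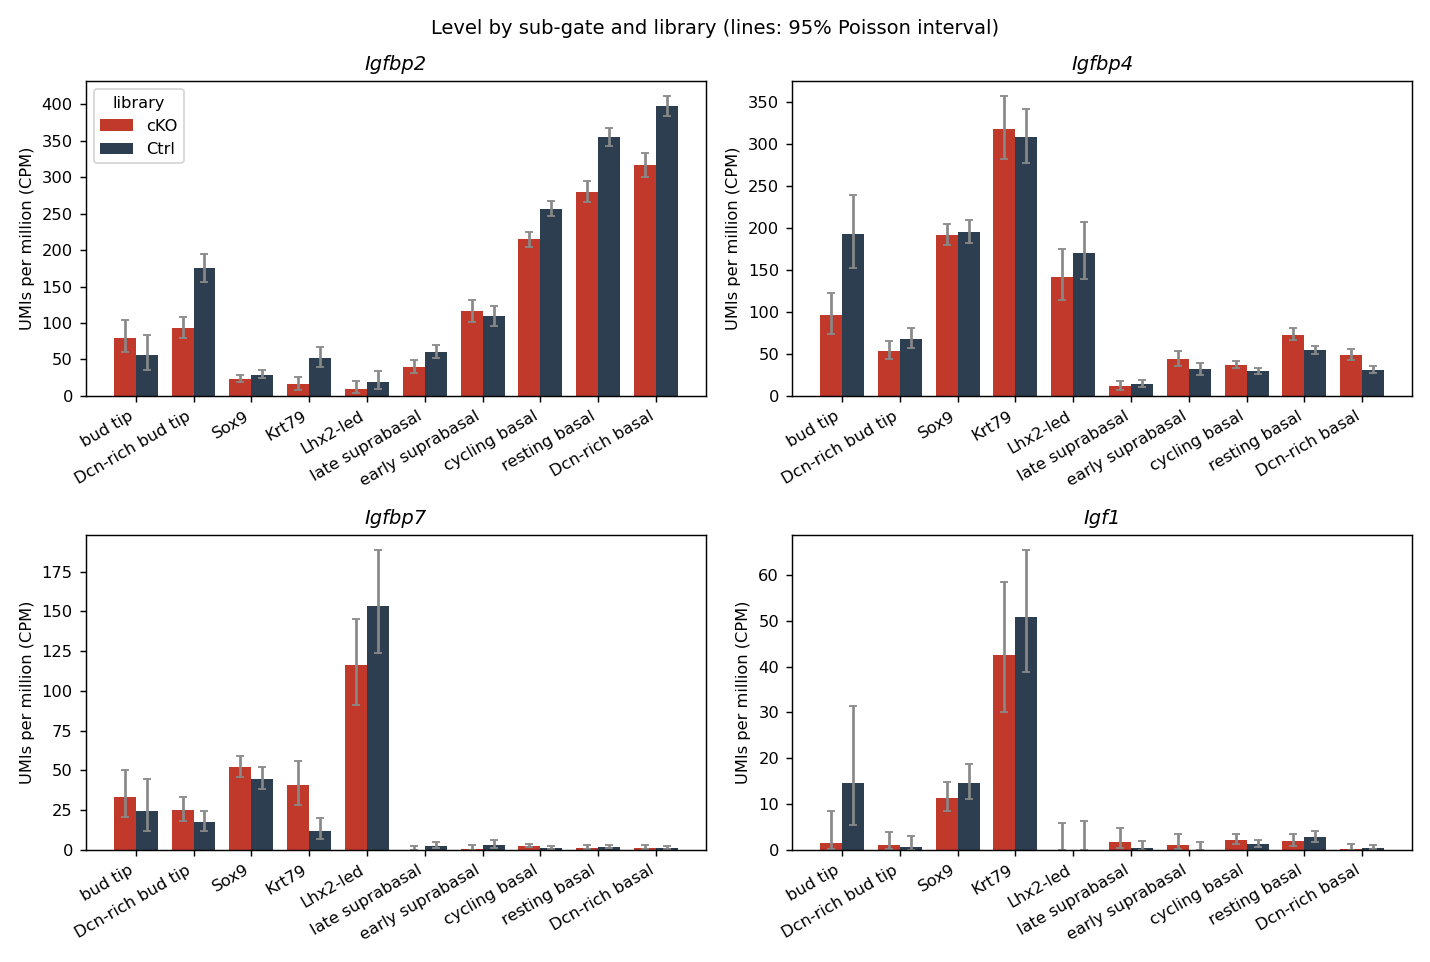
Bars give Igfbp2, Igfbp4, Igfbp7 and Igf1 in CPM over the sub-gates of follicle, suprabasal and basal cells and over the Dcn-rich bud tip and Dcn-rich basal cells, with cKO in red to the left of Ctrl in dark blue and 95% Poisson intervals as lines. Igfbp4 reaches 318 and 309 CPM in Krt79 cells, where Igf1 also has its highest bars, and Igfbp7 reaches 116 and 154 CPM in Lhx2-led cells.

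Cell by cell, each cell was thinned to 5500 UMIs so that shares could be compared, and shallower cells were left out (76 cKO and 41 Ctrl follicle cells, 10 and 9 suprabasal cells, 93 and 76 basal cells). Igfbp2 then had a UMI in 59.0% (56.4 to 61.6) of cKO and 69.0% (66.9 to 71.0) of Ctrl basal cells, against 68.1% and 78.8% before thinning. In follicle cells the share was 9.92% (7.74 to 12.5) in the cKO and 11.5% (9.15 to 14.3) in the Ctrl library. Igfbp4 had a UMI in 56.9% (53.1 to 60.8) of cKO and 59.1% (55.1 to 62.9) of Ctrl follicle cells, and in 13.6% and 10.5% of suprabasal cells. Before thinning these shares were 68.4% and 73.1% in follicle cells and 20.9% and 18.9% in suprabasal cells. Igfbp7 had a UMI in 18.9% (16 to 22.1) of cKO and 16.6% (13.8 to 19.7) of Ctrl follicle cells, or 23.4% and 22.8% before thinning. Suprabasal cells served as the comparison for stray RNA: 0 of 339 cKO cells had a UMI of Igfbp7, which by the floor of 3 counts allows a share of up to 0.885%, and 0.671% (0.139 to 1.95) of Ctrl cells did. Before thinning 0.287% of cKO and 1.54% of Ctrl suprabasal cells had one. The median depth before thinning was 8244 UMIs in cKO and 8250 UMIs in Ctrl follicle cells, and 10389 and 10724 UMIs in suprabasal cells.

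The spread of these thinned counts over cells was wider than even sampling would give, for which the variance equals the mean. In basal cells the variance of Igfbp2 was 2.0 times its mean in the cKO and 1.92 times in the Ctrl library, with up to 12 and 13 UMIs in a cell. For Igfbp7 in follicle cells it was 2.28 times in the cKO and 1.90 times in the Ctrl library. The same figure for Igf1r in basal cells was 1.09 and 1.03. Among follicle cells with a UMI of Igfbp4, 19.0% of 373 cKO cells and 14.2% of 374 Ctrl cells also had Igfbp7, while 18.8% of 282 and 20.1% of 259 cells without Igfbp4 had it. Igfbp5 was found in 15.8% of 830.0 cKO and 18.8% of 1332 Ctrl basal cells with a UMI of Igfbp2, and in 11.3% of 577 and 12.5% of 599 basal cells without one.

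Between the libraries, Igfbp3 was lower in the cKO in follicle, suprabasal and basal cells, and among members with at least 20 UMIs in these gates its ratio in follicle cells stood furthest from 1. Its ratio of cKO over Ctrl was 0.311 (0.129 to 0.681) in follicle, 0.577 (0.350 to 0.927) in suprabasal and 0.568 (0.453 to 0.710) in basal cells. These ratios rest on 9 and 27 UMIs in follicle cells, 26 and 61 in suprabasal cells and 114 and 272 in basal cells. In basal cells the UMIs were found in 77 cKO and 172 Ctrl cells, and the 10 cells richest in Igfbp3 held 36.8% and 20.2% of them. The ratio was 0.487 (0.342 to 0.684) in cycling and 0.684 (0.503 to 0.920) in resting basal cells. When every cell with a UMI of Mki67 or Top2a was left out it came to 0.826, which is not past 1.5-fold. Free RNA gave a ratio of 0.586 (0.372 to 0.903) for Igfbp3, and its part in the difference was not tested.

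Igfbp2 was lower in the cKO in basal cells, at a ratio of 0.796 (0.762 to 0.831), and in follicle cells, at 0.783 (0.638 to 0.960), while the suprabasal ratio was 0.992 (0.855 to 1.15). The follicle sub-gates were not alike in Igfbp2, at 0.303 (0.156 to 0.548) in Krt79 and 0.811 (0.617 to 1.07) in Sox9 cells. In the bud tip the ratio was 1.44 (0.867 to 2.46) within the gate and 0.530 (0.439 to 0.639) in the Dcn-rich bud tip. Within the suprabasal gate the Igfbp2 ratio was 0.653 (0.491 to 0.860) in late cells, which had at least 20000 CPM of Krt1 and Krt10, and 1.06 (0.886 to 1.27) in early cells. Late cells made up 153 of 349 suprabasal cells in the cKO and 249 of 456 in the Ctrl library. Igfbp5 had a ratio of 0.791 (0.701 to 0.892) in basal, 0.716 (0.524 to 0.975) in follicle and 0.794 (0.475 to 1.30) in suprabasal cells. Igfbp4 was higher in the cKO in basal cells, at 1.25 (1.13 to 1.39), and in suprabasal cells, at 1.34 (1.03 to 1.75), and slightly lower in follicle cells, at 0.907 (0.839 to 0.980). Within the suprabasal gate the Igfbp4 ratio was 1.40 (1.01 to 1.93) in early and 0.803 (0.453 to 1.38) in late cells. Within the follicle its ratio was 0.499 (0.354 to 0.703) in the bud tip (0.716, interval 0.581 to 0.883, with the Dcn-rich bud tip added), 0.983 (0.891 to 1.08) in Sox9, 1.03 (0.878 to 1.21) in Krt79 and 0.834 (0.621 to 1.12) in Lhx2-led cells. With the Dcn-rich cells added, Igfbp2 had 0.782 in basal and 0.677 in follicle cells, and Igfbp4 had 1.33 in basal and 0.943 (0.878 to 1.01) in follicle cells. Igfbp5 then had 0.819 (0.617 to 1.08) in follicle cells, an interval that holds 1. In free RNA the ratio was 0.793 (0.715 to 0.878) for Igfbp2 and 1.45 (1.19 to 1.77) for Igfbp4, and its part was not tested. Igf1r had 1.17 (1.01 to 1.34) in basal, 1.17 (0.925 to 1.47) in follicle and 0.988 (0.578 to 1.67) in suprabasal cells, and Igfbp7 1.15 (0.987 to 1.35) in follicle cells.

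Past 1.5-fold between the libraries were few members. In follicle cells 0 of 6 members with at least 20 UMIs were higher in the cKO, where 6.01% of 11175 genes were, and 1 of 6, Igfbp3, was lower, where 5.83% were. In suprabasal cells 0 of 5 were higher and 1 of 5, Igfbp3, was lower, against 11.7% and 5.35% of 9987 genes. In basal cells 1 of 7, Igfbp6, was higher and 1 of 7, Igfbp3, was lower, against 7.95% and 4.3% of 11682 genes. The Igfbp6 ratio of 1.74 came from 27 cKO and 21 Ctrl UMIs and its interval of 0.949 to 3.24 held 1. The median log2 ratio of the members measured was -0.25 in follicle, -0.02 in suprabasal and 0.22 in basal cells, beside -0.04, 0.04 and 0.02 over all genes measured.

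**Figure D4:**
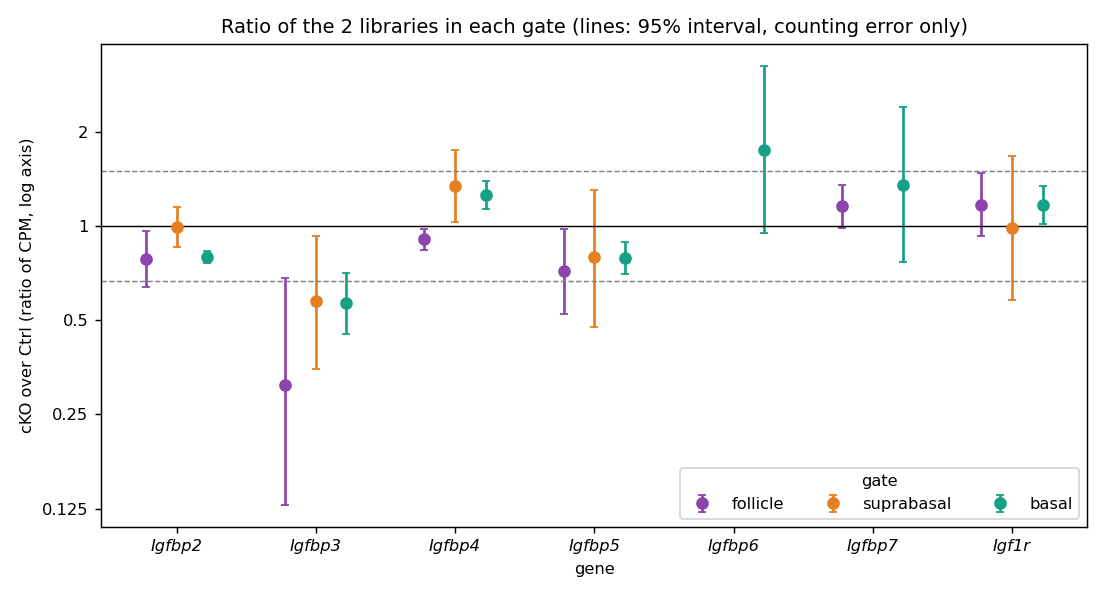
Points give the ratio of cKO over Ctrl CPM for each gene with at least 20 UMIs in follicle, suprabasal and basal cells on a log axis, with 95% intervals for counting error as vertical lines, 1 as a solid line and 1.5-fold either way as dashed lines. Igfbp3 lies below 1 in all 3 gates, and Igfbp4 lies below 1 in follicle cells (0.907) and above it in suprabasal (1.34) and basal cells (1.25).

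The ligands had layouts of their own. Igf1, which codes for the main activating ligand of IGF1R, had 13.4 CPM (10.8 to 16.5) in cKO and 20.1 CPM (16.7 to 23.9) in Ctrl follicle cells. In suprabasal cells it had 5 and 1 UMIs, and in basal cells 2.06 CPM in the cKO and 1.90 CPM in the Ctrl library. Within the follicle it was highest in Krt79 cells, as Igfbp4 was, with 42.6 CPM (30.1 to 58.5) in the cKO and 51.0 CPM (38.9 to 65.6) in the Ctrl library, 3.78-fold (2.41 to 5.87) and 3.52-fold (2.41 to 5.14) over the Sox9 cells. The cKO over Ctrl ratio of Igf1 in follicle cells was 0.669 (0.504 to 0.886). Igf2, the fetal ligand, had 7.99 CPM in cKO and 6.95 CPM in Ctrl follicle cells, 45.8 and 51.2 CPM in suprabasal cells and 43.8 and 45.6 CPM in basal cells. Follicle over basal was 0.182 (0.135 to 0.242) in the cKO and 0.153 (0.110 to 0.207) in the Ctrl library for Igf2, so it shared the low follicle level of Igfbp2 but not its drop above the basal layer. Free RNA held 57.1 CPM of Igf2 in the cKO and 51.2 CPM in the Ctrl library, as much as suprabasal and basal cells. Ins2 and the receptor gene Insrr had 0 UMIs in every gate.

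Of the other receptors, Insr (the insulin receptor, which can pair with IGF1R) had 9.35 CPM in cKO and 6.14 CPM in Ctrl follicle cells, 10.1 and 5.05 CPM in suprabasal cells and 10.3 and 8.02 CPM in basal cells. Its cKO over Ctrl ratio was 1.52 (1.00 to 2.34) in follicle, 2.0 (1.20 to 3.40) in suprabasal and 1.28 (1.01 to 1.63) in basal cells, beside 9.66 CPM in cKO and 3.89 CPM in Ctrl free RNA. Igf2r, the mannose 6-phosphate receptor that clears IGF2, had ratios of 1.08 (0.760 to 1.55), 0.895 (0.594 to 1.34) and 1.19 (0.991 to 1.42).

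A wider list of 42 genes of the IGF axis covered other binding proteins, ligands, receptors, proteases of the binding proteins, adaptors, the PI3K and Akt arm and Igf2 mRNA-binding proteins. In follicle cells 3 of the 34 measured were at least 1.5-fold higher in the cKO (6.01% of all genes were), namely Pik3cb (1.75, interval 0.946 to 3.37), Igf2bp1 (1.60, interval 1.25 to 2.07) and Insr. At least 1.5-fold lower were 2 of 34 (5.83% of all genes), Stc2 (0.466, interval 0.212 to 0.969) and Grb14 (0.562, interval 0.417 to 0.753), and Pik3r2 followed at 0.667 (0.572 to 0.776). Pik3cb, Pik3r1 and Pik3r2 encode subunits of PI3K, Igf2bp1 an RNA-binding protein, Stc2 an inhibitor of the PAPP-A protease and Grb14 an adaptor that restrains the insulin receptor. Foxo1 is a transcription factor that Akt holds out of the nucleus, Stc1 a relative of Stc2, Sos1 an activator of Ras, Pdpk1 a kinase of Akt and Rptor a subunit of mTORC1. In suprabasal cells 1 of 31, Insr, was past 1.5-fold higher and 2 of 31, Foxo1 (0.487, interval 0.200 to 1.08) and Stc1 (0.643, interval 0.352 to 1.14), were lower, beside 11.7% and 5.35% of all genes. Next to these came Sos1 at 1.42 (0.982 to 2.06) and Pik3r1 at 0.759 (0.629 to 0.914). In basal cells 1 of 35, the insulin receptor substrate Irs2, was past 1.5-fold higher, at 1.79 (1.19 to 2.71), and 0 of 35 were lower, beside 7.95% and 4.3% of all genes. Htra1, a secreted protease that can cut binding proteins, had 1.35 (1.27 to 1.44) from 1838 and 1843 UMIs. The lowest were Stc2 at 0.728 (0.413 to 1.25), Pdpk1 at 0.735 (0.632 to 0.855) and Rptor at 0.761 (0.600 to 0.962). The list's median log2 ratio was 0.02 in follicle, -0.04 in suprabasal and -0.00 in basal cells, beside -0.04, 0.04 and 0.02 over all genes measured.

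For each member with at least 200 UMIs in all kept cells, the genes with the most similar layout were sought among 10163 genes over 16 points, the 8 sub-gates of both libraries, by Pearson's r of log2(CPM + 1). The points share their libraries and the sub-gates were cut from the same cells, so r is given as a description. Igfbp2 ran closest to Wnt16 (r = 0.964), Rnase4 (0.963) and Serpinb10 (0.944). Igfbp5 ran closest to Pdlim1 (0.941), Cdon (0.931) and Zyx (0.908), and Igfbp3 to Gna14 (0.905), Cbs (0.839) and Tomm70a (0.835). Igfbp4 was most like Btg2 (0.983), Map1lc3a (0.982) and Jun (0.980). Btg2 and Jun are early-response genes. Igfbp7 was most like Ltbp1 (0.987), which encodes a TGF-beta-binding protein, Mycn (0.971) and Rasgef1b (0.960). Igf1r was most like Trp63 (0.956), the master transcription factor of stratified epithelium, Agrn (0.932) and Apoe (0.930). Igfbp6, with 82 UMIs in all, was below the minimum.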

How the data were processed

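Single-cell RNA of YFP+ epithelial cells of embryonic day 17 back skin was measured in 1 cKO and 1 Ctrl library. The deposited values are raw UMI counts, obtained by the authors with Cell Ranger from reads aligned to mm10. The submitters' processing notes name Cell Ranger 2.0, the methods name a later version, and the annotation release is not given in the sources used here. Counting keeps 1 tag per molecule whatever the length of the transcript. All barcodes are listed, so the counts precede any cell filter.

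Barcodes with at least 1800 genes were kept and gated by marker genes; other cell types were set aside first (mesenchymal at least 10 UMIs, melanocyte 5, Merkel 2, immune 3, endothelial 2, muscle 3 over their markers). Late suprabasal cells had at least 20000 CPM of Krt1 and Krt10. No doublet caller was run; an alternative left out the 4% of cells with the most UMIs. UMIs were summed per gate and library and scaled to CPM, with exact Poisson intervals, exact conditional binomial intervals for ratios and Clopper-Pearson intervals for shares, all at the 95% level. A member was counted with at least 20 UMIs over both libraries and a fold of 1.5 between libraries or 2 between gates; a floor of 3 counts replaced a 0. Intervals and fold calls were tested on simulated gate sums, drawn as independent Poisson counts at the real depths. This is the model the intervals assume. The simulation left out the wider spread over cells given above, so it cannot show whether the intervals cover that spread. The members, lists and gates were chosen with earlier results of these data known, and the Dcn-rich classes and keratin steps after the values were seen. Named genes are the 7 members, the ligands and other receptors, the 3 highest and 3 lowest of the axis list in each gate and the 3 genes most like each member; 1 gene of the axis list that this rule names is not reported here. There were 18 alternative settings and 1 added after seeing the data, the gates without Dcn as a mesenchymal marker. Gene positions came from GENCODE vM21 and start regions from RefSeq, in which all 7 members matched. Python 3.11.15, numpy 2.4.6, scipy 1.17.1, pandas 2.3.3, matplotlib 3.10.9 and, for TMM factors, edgeR 4.0.16 in R 4.3.3 were used. No paired analysis was possible because each condition had 1 library.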

Additional observations from a re-analysis of the deposited data

Results flagged for a closer look

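Igfbp4 differed between cell types in the direction of its library ratio. It was 0.907 in follicle cells and 1.34 and 1.25 in suprabasal and basal cells, with intervals that lie on opposite sides of 1. With the Dcn-rich cells added the follicle ratio was 0.943 (0.878 to 1.01), an interval that holds 1. The suprabasal ratio was 1.40 (1.01 to 1.93) in early and 0.803 (0.453 to 1.38) in late cells. For the whole suprabasal gate it was 1.13 with cells thinned to 5500 UMIs. The difference between cell types was not tested, since each condition had 1 library.

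In the Dcn-rich cells, which the comparisons between gates do not use, Igfbp4 had 57.4 CPM (52.2 to 62.9) in the cKO and 44.2 CPM (40.5 to 48.0) in the Ctrl library. Igfbp7 had 17.9 CPM (15.1 to 21.1) in the cKO and 12.8 CPM (10.9 to 15.0) in the Ctrl library. Follicle cells made up 240.0 of these 743 cKO cells and 260.0 of 1123 Ctrl cells, and within that follicle class Igfbp4 had 72.8 and 74.5 CPM and Igfbp7 44.1 and 36.4 CPM.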

How the results depend on the processing

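The counts of members past 1.5-fold are small, so most alternatives that moved them did so by 1 member. In follicle cells the count of 1 became 2 with equal weight for each cell, with a follicle minimum of 2 or of 5 UMIs and with no minimum of UMIs, and 0 with at least 100 UMIs. In suprabasal cells the count of 1 became 2 with at least 2500 genes, with a suprabasal minimum of 5000 CPM, without cells with Mki67 or Top2a and with no minimum of UMIs, 3 with cells thinned to 5500 UMIs and 0 with at least 100 UMIs. In basal cells the count of 2 became 1 with at least 1000 genes, with at least 2500 genes and with at least 100 UMIs, 3 with at most 10% mitochondrial UMIs, where Igfbp7 had 1.51, and 0 without cells with Mki67 or Top2a, since the Igfbp3 ratio then was 0.826 and Igfbp6 fell under 20 UMIs. The counts past 2-fold between gates stayed within 1.5 times of 5 and 4 under all alternatives tried. Of 306 values for 18 member ratios under alternatives, 294 lay within the ratio's interval, 12 lay outside and 0 of those past 1.5-fold turned round. Igfbp3 stayed below 1 in all 17 alternatives in each gate, from 0.535 to 0.826 in basal cells. Igfbp4 stayed above 1 in basal cells, from 1.17 to 1.33, and below 1 in follicle cells, from 0.902 to 0.998. Igfbp7 in follicle cells went below 1 in 2 of 17, with a lowest value of 0.954 without cells with Mki67 or Top2a, and Igf1r in basal cells in 1 of 17, at 0.915 under the same setting. Igfbp2 and Igf1r in suprabasal cells crossed 1 in 3 of 17 each, between 0.915 and 1.06 and between 0.818 and 1.84, and Igfbp7 in basal cells in 1, at 0.719. The cause was not tested. Scaling by TMM or the median of ratios moved the median log2 ratio of all genes by less than 0.1. Counts under 100 UMIs limit Igfbp3 outside basal cells, Igfbp6 everywhere, Igfbp7 outside follicle cells and Igf1r and Igfbp5 in suprabasal cells, and 1 library per condition limits every ratio.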

Other observations

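Cells outside the gates also held members. In the Merkel gate, 29 cKO and 40 Ctrl cells of the touch-sensing lineage, Igfbp4 had 199.6 CPM (143 to 271) in the cKO and 177 CPM (134 to 228) in the Ctrl library. Igfbp2 had 3 UMIs in the cKO and 35 in the Ctrl Merkel gate, which correspond to 14.6 CPM (3.01 to 42.7) and 107 CPM (74.3 to 148). The cKO over Ctrl ratio was 0.137 (0.0270 to 0.434). The median cell of the Merkel gate had 3 UMIs of Krt5 and Krt14 in the cKO and 8.5 in the Ctrl library. Igfbp5, also highest in basal cells, had 0 and 10 UMIs in this gate. The part of basal keratinocyte RNA in the Igfbp2 ratio was not tested. The 6 cells of each library with at least 10 UMIs over Col1a1, Col1a2, Col3a1 and Lum had 119 CPM of Igfbp7 (54.5 to 226) in the cKO and 376 CPM (254 to 537) in the Ctrl library, from 9 and 30 UMIs, above every follicle sub-gate in the Ctrl library.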
